A study of Mus musculus with 12 samples.

Results

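The stress keratins described here are the 4 mouse genes Krt6a, Krt6b, Krt16 and Krt17, chosen by name as the set of inducible epidermal keratins, with earlier results of these data known. They were read from expression arrays of mouse dorsal skin on which 22180 genes had a row of their own, and each of the 4 had exactly 1 such row. The study asks whether psoriasis-like skin inflammation driven by the cytokine IL-17C depends on IL-6. All animals were C57Bl/6, male and female, and dorsal skin was pooled by group and age into 12 pools of 4 or 5 mice, 58 mice in all, with 1 array per pool. The 6 groups were wild type (WT), mice without Il6 (IL-6KO), mice with an IL-17C transgene (IL-17C+) sampled as involved and as uninvolved skin, and transgenic mice that also lacked Il6 (IL-17C+KO), again as involved and as uninvolved skin. Each group had 1 pool at 10 weeks and 1 at 14 weeks, so a group has n = 2 arrays of different age and no age is repeated within a group. IL-6KO skin came from an anatomical region similar to that of WT skin, although the labels mark it as involved. The sources used here do not give the promoter of the transgene or say whether involved and uninvolved pools shared mice. The p-values below measure only the spread between these pools, not the spread between mice.

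Keratins are the filament proteins of epithelial cells, and each filament is built from pairs of a type I and a type II keratin. Krt6a and Krt6b encode type II keratins, and Krt16 and Krt17 encode type I keratins that pair with them. In healthy skin this set is found mainly in the hair follicle, in the nail and in skin of palms and soles. In the epidermis between the follicles the genes are switched on by injury, ultraviolet light and inflammation, and keratins 6, 16 and 17 are standard markers of the activated keratinocyte in psoriasis. Krt17 is in addition a regular keratin of the follicle and its precursors. In the reference annotation the Krt6a and Krt6b genes are neighbours in the type II cluster on mouse chromosome 15, and Krt16 and Krt17 are neighbours in the type I cluster on chromosome 11.

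The labels were first set against the genes they name. Il6 lay at 2.68 and 2.79 (log2 intensity at 10 and 14 weeks) in skin labelled IL-6KO, and at 2.92 and 2.88 in WT. All of these were below the array medians (4.19 and 3.99 for IL-6KO, 4.23 and 3.97 for WT). So near background, they cannot show whether Il6 was lost in IL-6KO skin. Il6 reached 4.93 and 5.00 in skin labelled IL-17C+KO uninvolved and 3.14 and 4.64 in skin labelled IL-17C+KO involved, against 4.23 and 3.21 in skin labelled IL-17C+ involved. Of these, 3.14 and 3.21 were below the array medians of 4.04 and 4.06. Il17c was at 4.67 and 4.96 in WT, at 6.30 and 6.17 in skin labelled IL-6KO, at 5.81 and 6.63 in involved and at 4.74 and 4.16 in uninvolved IL-17C+ skin. In the pools labelled IL-17C+KO it was at 5.32 and 5.62 where marked involved and at 6.16 and 6.25 where marked uninvolved. The Il6 levels in both IL-17C+KO uninvolved arrays and in the 14-week IL-17C+KO involved array therefore go against these labels. So do the Il17c levels in IL-17C+ uninvolved skin. Both statements hold unless the probes lie outside the deleted or added sequence. The sources used here do not give the extent of that sequence. The label IL-6KO names no change of Il17c, yet Il17c stood above WT there, and the cause was not tested. Directions drawn from the IL-6KO and IL-17C+KO arrays below are those of skin as labelled. An exchange of labels among these arrays is possible and was not tested, and it would turn or change what the comparisons of site and of Il6 loss and both interactions below compare. The keratins and adhesion genes that define epidermis were well measured in every group, with a mean level of 8.38 to 9.19 over 17 genes and 1 of the 17 below the array median.

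Krt6a was at 7.31 and 7.33 (log2 intensity at 10 and 14 weeks, as in all pairs of levels below) in WT skin, at 7.45 and 8.99 in IL-6KO skin and at 8.72 and 7.88 in IL-17C+ uninvolved skin. It was at 10.60 and 10.51 in IL-17C+ involved skin, at 10.43 and 10.19 in IL-17C+KO uninvolved skin and at 7.31 and 8.22 in IL-17C+KO involved skin. The 4 arrays of IL-17C+ involved and IL-17C+KO uninvolved skin thus stood above all 8 others, which ran from 7.31 to 8.99.

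Krt6b had the widest range of the set. It was at 5.93 and 3.53 in WT skin, the latter below the median of 3.97 of all rows on that array, at 6.71 and 7.94 in IL-6KO skin and at 5.83 and 4.98 in IL-17C+ uninvolved skin. Its levels were 11.19 and 11.27 in IL-17C+ involved skin, 10.79 and 10.80 in IL-17C+KO uninvolved skin and 6.89 and 8.17 in IL-17C+KO involved skin. In IL-17C+ involved skin at either age, 99.7% of all rows of the array lay below that of Krt6b, against 41.2% in WT skin at 14 weeks.

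Krt16 followed the same order. Its levels were 5.95 and 4.07 in WT skin, 6.65 and 8.29 in IL-6KO skin and 6.23 and 5.50 in IL-17C+ uninvolved skin. They were 10.67 and 10.74 in IL-17C+ involved skin, 10.25 and 10.12 in IL-17C+KO uninvolved skin and 6.37 and 8.78 in IL-17C+KO involved skin. The high groups varied little between the ages, and the largest spread within a group was that of IL-17C+KO involved skin (SD 1.71, n = 2).

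Krt17 was high everywhere and moved little. It was at 8.93 and 9.94 in WT skin, at 9.55 and 9.92 in IL-6KO skin, at 9.37 and 10.03 in IL-17C+ uninvolved skin and at 9.70 and 9.38 in IL-17C+KO involved skin. It reached 10.50 and 10.42 in IL-17C+ involved skin, and it was at 10.25 and 9.91 in uninvolved IL-17C+KO skin. At its lowest, in WT skin at 10 weeks, 98.3% of the rows of the array still lay below it. The means of the 6 groups spanned 1.03 log2 units for Krt17, against 3.24 for Krt6a, 5.70 for Krt16 and 6.50 for Krt6b.

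**Figure D1:**
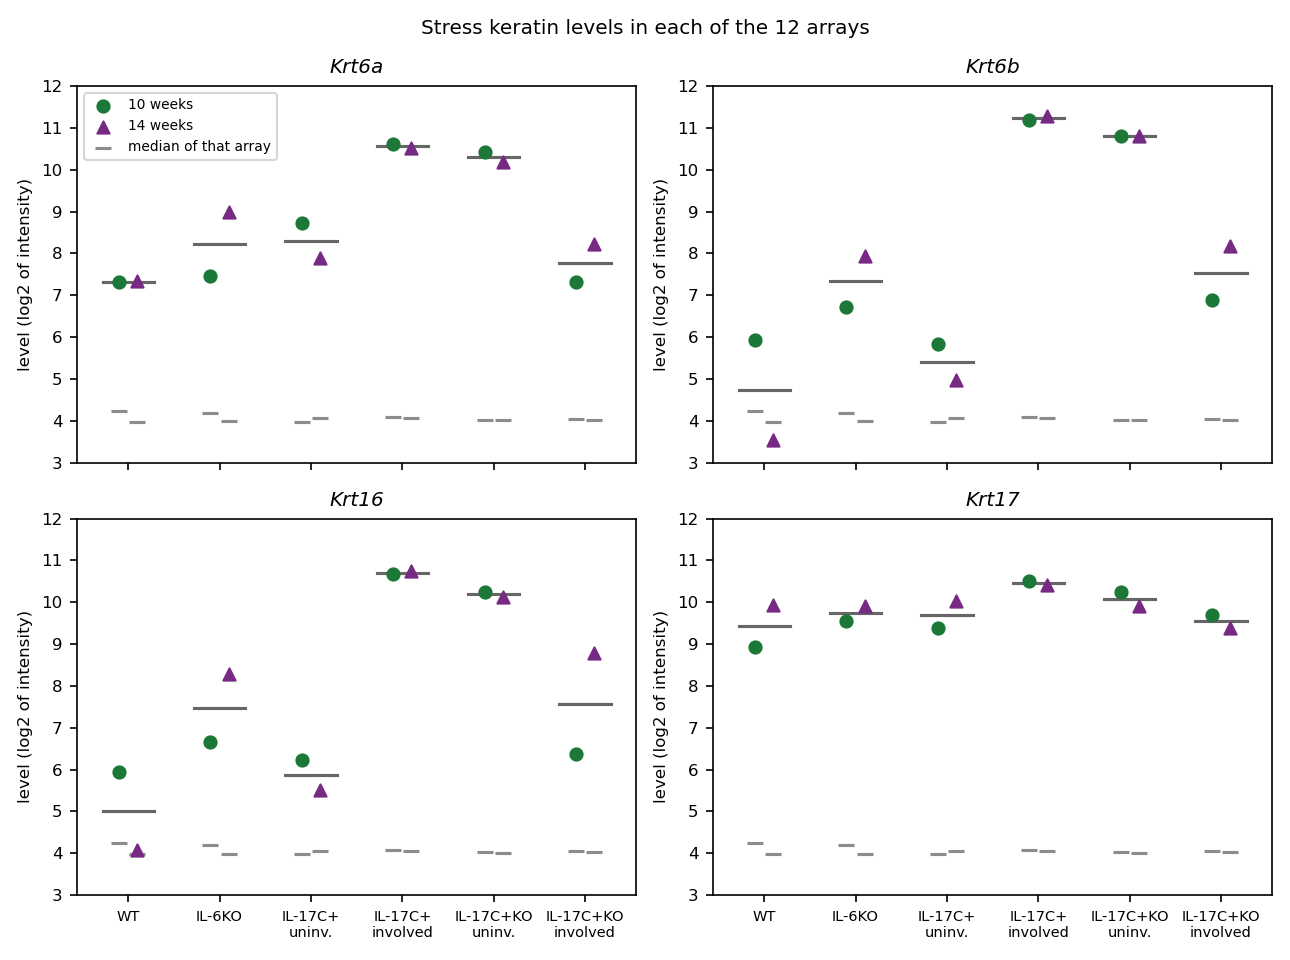
Levels of the 4 stress keratins (vertical axis, log2 intensity) in the 6 groups (horizontal axis), with 10-week pools as circles, 14-week pools as triangles, the group mean (n = 2) as a long line and the median of each array as a short grey dash. Krt6a, Krt6b and Krt16 stood at 10.12 or more in IL-17C+ involved and IL-17C+KO uninvolved skin and at 8.99 or less elsewhere, while Krt17 stayed between 8.93 and 10.50.

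In the order of group means, all 4 genes had IL-17C+ involved skin at the top, IL-17C+KO uninvolved skin next and WT at the bottom. The differences between the top pair were 0.25 ± 0.45 for Krt6a, 0.43 ± 0.65 for Krt6b, 0.52 ± 0.73 for Krt16 and 0.38 ± 0.34 for Krt17 (log2 difference ± SE of limma), and none passed (limma, adjusted p from 0.943 to 0.964, with none of the 4 under an unadjusted p of 0.05). The 95% interval of that difference ran from -0.98 to 1.85 for Krt6b, so both a higher and a lower level in IL-17C+ involved skin fall within it. That interval uses a spread shared by all 6 groups. The SD of Krt6b was 0.058 and 0.0019 in this pair, against 1.70 in WT skin. In all 4 genes both IL-17C+ involved arrays lay above both IL-17C+KO uninvolved arrays. The share of all genes in which this held was not counted. For other pairs of groups, such a separation in 1 direction held in 11.7% to 17.6% of all genes. No order within the top pair is therefore drawn from it. For Krt6b and Krt16 the order went on with IL-17C+KO involved, IL-6KO and IL-17C+ uninvolved skin, and for Krt6a with IL-17C+ uninvolved, IL-6KO and IL-17C+KO involved skin. No neighbours in any of the 4 orders differed past the threshold. For Krt6b and Krt16 the IL-6KO arrays lay above the IL-17C+ uninvolved arrays without overlap (as in 14.7% of all genes), by 1.92 ± 0.65 (adjusted p = 0.453) and 1.60 ± 0.73 (adjusted p = 0.63).

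The effect of the transgene in lesional skin was read from IL-17C+ involved against WT skin. Krt6b rose by 6.50 ± 0.65 on the log2 scale (90.6-fold, adjusted p = 0.000457), Krt16 rose by 5.70 ± 0.73 (51.8-fold, adjusted p = 0.00194) and Krt6a rose by 3.24 ± 0.45 (9.43-fold, adjusted p = 0.00304). Krt17 differed by 1.03 ± 0.34 (2.04-fold) and did not pass (adjusted p = 0.204), with a 95% interval from 0.28 to 1.78. All values come from limma with Benjamini-Hochberg adjustment over the 22180 genes, with 0.05 as the threshold for the adjusted p. So 3 of the 4 members were higher in a comparison in which 1.8% of all genes passed in either direction and 1.1% were higher. Krt6b had the 3rd largest positive difference of all genes, Krt16 the 8th and Krt6a the 45th, and Krt17 came at place 496. In whole skin, more keratinocytes in the activated state and more RNA per cell cannot be told apart. The sizes depend on the WT arrays, since leaving out the 10-week or the 14-week WT array put Krt6b at 7.88 or 5.13 (235-fold and 34.9-fold), and Krt16 at 6.96 or 4.43 (124-fold and 21.6-fold). Without the 10-week IL-17C+ involved array, Krt6a no longer passed (3.05 ± 0.59), and with the mean level of skeletal muscle genes as a covariate none passed (Krt6a 2.03 ± 0.89, Krt6b 3.35 ± 0.99, Krt16 1.76 ± 0.94) and with that of hair shaft genes Krt6a (3.25 ± 0.65) and Krt16 (5.13 ± 1.03) did not.

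**Figure D2:**
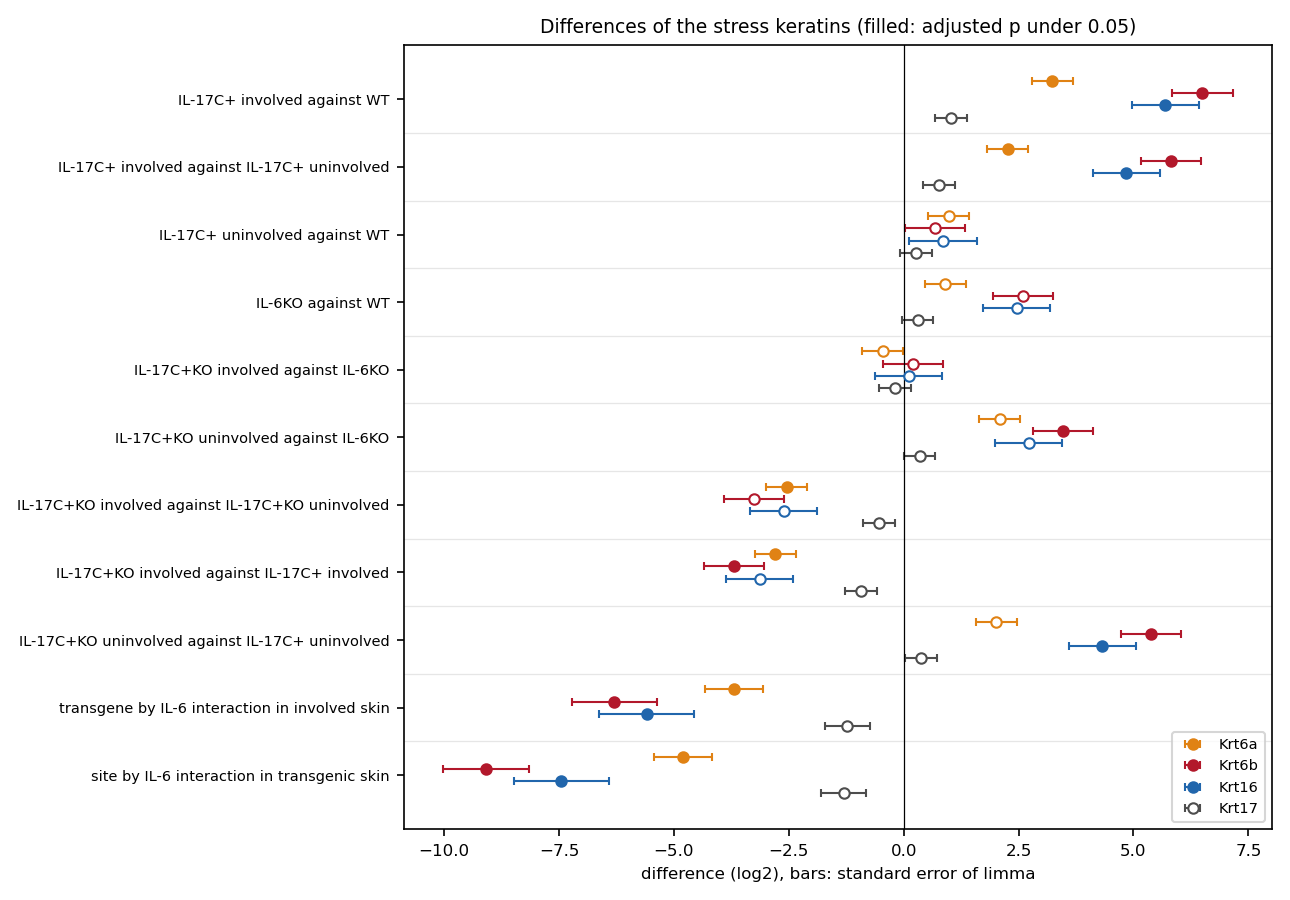
Differences of the 4 stress keratins (horizontal axis, log2) in 11 comparisons (vertical axis), with the standard error of limma as bars and filled points where the adjusted p was under 0.05. Krt6b and Krt16 had the largest differences from WT in IL-17C+ involved skin, the interactions with IL-6 were negative for all 4 genes, and Krt17 passed in none of the comparisons.

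Within IL-17C+ mice, involved skin was set against uninvolved skin. Krt6b rose by 5.82 ± 0.65 (56.6-fold, adjusted p = 0.000988), Krt16 by 4.84 ± 0.73 (28.7-fold, adjusted p = 0.00535) and Krt6a by 2.26 ± 0.45 (4.79-fold, adjusted p = 0.0242). Krt17 differed by 0.76 ± 0.34 (1.70-fold, adjusted p = 0.393). In this comparison 1.61% of all genes passed and 0.775% were higher, and 3 of the 4 members were among the latter. This comparison uses the same IL-17C+ involved arrays as the one against WT. Of the 3 calls, those of Krt6a and Krt16 were lost when the 10-week array of involved skin (2.08 and 4.75) or the 14-week one (2.45 and 4.94) was left out, or the 14-week IL-17C+ uninvolved array (1.63 and 4.26; without the 10-week one 2.89 and 5.42), while all 3 were lost with skeletal muscle as a covariate (Krt6a 1.01, Krt6b 2.56, Krt16 0.76) and that of Krt6a with hair shaft genes (2.25).

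Uninvolved transgenic skin was then set against WT skin. The differences were 0.98 ± 0.45 for Krt6a (adjusted p = 0.869), 0.68 ± 0.65 for Krt6b (adjusted p = 0.913), 0.85 ± 0.73 for Krt16 (adjusted p = 0.907) and 0.27 ± 0.34 for Krt17 (adjusted p = 0.93). None of the 4 passed by limma, 1 had an unadjusted p under 0.05, and 0.0541% of all genes passed. For Krt6a, the member with that p, the uninvolved arrays lay above both WT arrays (as in 14.9% of all genes), and for Krt6b, Krt16 and Krt17 the groups overlapped.

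Loss of Il6 without the transgene was read from IL-6KO against WT skin. Krt6b differed by 2.60 ± 0.65 (adjusted p = 0.144) and Krt16 by 2.45 ± 0.73 (adjusted p = 0.252), and in both genes, as in Krt6a, the IL-6KO arrays lay above the WT arrays, as they did in 11.7% of all genes. The differences were 0.90 ± 0.45 for Krt6a (adjusted p = 0.638) and 0.30 ± 0.34 for Krt17 (adjusted p = 0.891). None of the 4 passed by limma, 2 of them had an unadjusted p under 0.05, and 0.455% of all genes passed. Without the 10-week WT array the difference of Krt6b was 3.97 ± 0.55 and passed.

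Adding the transgene to mice without Il6 was read at each site against IL-6KO skin. In involved skin the differences were -0.45 ± 0.45 for Krt6a, 0.20 ± 0.65 for Krt6b, 0.11 ± 0.73 for Krt16 and -0.19 ± 0.34 for Krt17 (adjusted p = 0.999 for each). None of the 4 passed by limma and none had an unadjusted p under 0.05, where 0.171% of all genes passed. The 95% interval reached up to 1.62 for Krt6b and 1.69 for Krt16, both under the differences of these genes between IL-17C+ involved and WT skin.

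In uninvolved skin labelled IL-17C+KO, against the same IL-6KO arrays, Krt6b rose by 3.47 ± 0.65 (11.1-fold, adjusted p = 0.0446). Krt16 differed by 2.72 ± 0.73 (adjusted p = 0.219), Krt6a by 2.09 ± 0.45 (adjusted p = 0.0774) and Krt17 by 0.34 ± 0.34 (adjusted p = 0.908). Here 0.397% of all genes passed and 0.392% were higher. The call of Krt6b was lost without either IL-6KO array (2.66 without the 10-week and 4.27 without the 14-week one), without either IL-17C+KO uninvolved array (3.53 and 3.40) and without either IL-17C+ involved array (3.47), and Krt6a passed without the 14-week IL-6KO array (2.89) or either IL-17C+ uninvolved array (2.09). The call of Krt6b was also lost with hair shaft (3.55) or epidermal genes (3.33) as a covariate, without an intensity trend (3.47), after quantile normalization (3.38) and with the mean of a gene's rows (3.47). Against WT skin, 3 members rose in the same pools, where 1.39% of all genes passed and 1.12% were higher. By limma, Krt6b rose by 6.07 ± 0.65 (adjusted p = 0.000662), Krt16 by 5.17 ± 0.73 (adjusted p = 0.00424) and Krt6a by 2.99 ± 0.45 (adjusted p = 0.0056). No alternative fits were run for that comparison.

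Within IL-17C+KO mice the means of the sites stood in the opposite order to those of IL-17C+ mice, and 1 of the 4 members passed. Krt6a fell by 2.54 ± 0.45 on the log2 scale in involved against uninvolved skin (5.82-fold lower, adjusted p = 0.0255). Krt6b differed by -3.27 ± 0.65 (adjusted p = 0.0521), Krt16 by -2.61 ± 0.73 (adjusted p = 0.252) and Krt17 by -0.54 ± 0.34 (adjusted p = 1), and for all 4 genes both involved arrays lay below both uninvolved arrays, as in 17.6% of all genes. In this comparison 0.505% of all genes passed and 0.478% were lower. The call of Krt6a was lost without the 10-week IL-17C+KO involved array (-2.13), the 10-week IL-17C+KO uninvolved array (-2.26) or the 14-week IL-17C+KO uninvolved array (-2.82). With skeletal muscle or hair shaft genes as a covariate Krt6a did not pass (-2.07 and -2.56), Krt6b passed without any 1 array of WT or IL-17C+ uninvolved skin (-3.27 each), and Krt6b and Krt16 both passed without the 14-week IL-17C+KO involved array (-4.10 and -3.92). Krt6b also passed with a block of genotype and age over the transgenic arrays (-3.27 ± 0.34).

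The effect of Il6 loss in transgenic skin was read at each site. In involved skin, Krt6b fell by 3.70 ± 0.65 (13.0-fold lower, adjusted p = 0.0247) and Krt6a fell by 2.79 ± 0.45 (6.91-fold lower, adjusted p = 0.0136) in IL-17C+KO against IL-17C+ mice. Krt16 differed by -3.13 ± 0.73 (adjusted p = 0.0838) and Krt17 by -0.92 ± 0.34 (adjusted p = 0.377). Of all genes, 0.649% passed and 0.419% were lower. Both calls were lost without the 10-week IL-17C+ involved array (Krt6a -2.61, Krt6b -3.81), the 14-week IL-17C+ involved array (-2.97 and -3.59) or the 10-week IL-17C+KO involved array (-2.37 and -2.86), while Krt16 passed without either WT array (-3.13) or the 14-week IL-17C+KO involved array (-4.44, with Krt6b at -4.54). Neither passed with skeletal muscle (Krt6a -1.87, Krt6b -1.31), hair shaft (-2.81, -3.54) or epidermal genes (-3.72, -3.48) as a covariate.

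In uninvolved skin the direction was the opposite. Krt6b rose by 5.39 ± 0.65 (41.9-fold, adjusted p = 0.00162) and Krt16 rose by 4.32 ± 0.73 (adjusted p = 0.0155) in IL-17C+KO against IL-17C+ mice. Krt6a differed by 2.01 ± 0.45 (adjusted p = 0.0715) and Krt17 by 0.38 ± 0.34 (adjusted p = 0.977). Of all genes, 0.712% passed and 0.541% were higher. The call of Krt16 was lost without the 10-week or the 14-week IL-17C+KO uninvolved array (4.10 and 4.54) or the 14-week IL-17C+ uninvolved array (3.74), and Krt6a passed without either IL-6KO array (2.01) or the 10-week IL-17C+ uninvolved array (2.65). With skeletal muscle as a covariate Krt6b was at 3.30 ± 0.74 and Krt16 at 1.70 ± 0.70, and neither passed.

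The remaining pairs of groups complete the comparison, and no alternative fits were run for them. In IL-17C+ involved against IL-6KO skin Krt6b rose by 3.90 ± 0.65 (adjusted p = 0.0211) and Krt6a by 2.34 ± 0.45 (adjusted p = 0.0426), while Krt16 differed by 3.24 ± 0.73 (adjusted p = 0.105) and Krt17 by 0.73 ± 0.34 (adjusted p = 0.772), where 0.437% of all genes passed and 0.388% were higher. None of the 4 passed by limma in IL-17C+KO involved against WT skin (0.0225% of all genes passed), in IL-17C+KO involved against IL-17C+ uninvolved skin (0.189% passed) or in IL-17C+ uninvolved against IL-6KO skin (0.0947% passed), with 2 of the 4 at an unadjusted p under 0.05 in each. In the first of these the differences were 2.80 ± 0.65 for Krt6b (adjusted p = 0.318) and 2.56 ± 0.73 for Krt16 (adjusted p = 0.395).

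Whether these effects differed with Il6 was tested as interactions. The transgene effect in involved skin, taken as IL-17C+KO involved minus IL-6KO, less IL-17C+ involved minus WT, was -6.30 ± 0.93 for Krt6b (adjusted p = 0.00684), -5.59 ± 1.03 for Krt16 (adjusted p = 0.0215), -3.69 ± 0.63 for Krt6a (adjusted p = 0.0137) and -1.22 ± 0.49 for Krt17 (adjusted p = 0.38). Thus 3 of the 4 members had a smaller transgene effect in skin labelled as lacking Il6, where 1.31% of all genes passed and 0.834% were negative. Part of each value comes from the reference, since IL-6KO skin stood above WT skin. That difference was 2.60 for Krt6b, 2.45 for Krt16 and 0.90 for Krt6a, and none of these passed by limma. Without the 10-week IL-17C+ involved (Krt6a -3.51, Krt16 -5.49), 10-week IL-17C+KO involved (-3.27, -4.28), 14-week WT (-3.57, -4.32) or 14-week IL-6KO array (-2.89, -4.74), Krt6b passed and the others did not, and without the 14-week IL-17C+ involved array Krt16 did not pass (-5.68). Over all fits without 1 array Krt6b ran from -7.67 (10-week WT array left out) to -4.92 (14-week WT array), Krt16 from -6.90 (14-week IL-17C+KO involved array) to -4.28 and Krt6a from -4.49 (10-week IL-6KO array) to -2.89. With skeletal muscle as a covariate none passed (Krt6a -2.09, Krt6b -2.12, Krt16 -0.36), nor with hair shaft genes (-3.74, -5.91, -3.89).

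The difference between involved and uninvolved skin, IL-17C+KO minus IL-17C+, was -9.09 ± 0.93 for Krt6b (adjusted p = 0.000184), -7.45 ± 1.03 for Krt16 (adjusted p = 0.00197), -4.80 ± 0.63 for Krt6a (adjusted p = 0.0014) and -1.30 ± 0.49 for Krt17 (adjusted p = 0.265). Here 2.58% of all genes passed and 1.43% were negative, and 3 of the 4 members were among the latter. These 3 calls were made in each of the fits that left out 1 array, with Krt6b from -9.93 to -8.25 and Krt16 from -8.76 to -6.14 (without the 14-week and the 10-week IL-17C+KO involved array), and Krt6a from -5.44 to -4.17 (without the 10-week and the 14-week IL-17C+ uninvolved array). They were not made with skeletal muscle as a covariate (Krt6a -3.08, Krt6b -4.61, Krt16 -1.85), and that of Krt16 was lost with epidermal genes (-7.97). The negative sign means that involved minus uninvolved skin was lower in IL-17C+KO than in IL-17C+ mice. By their means, all 4 genes were higher at the site labelled involved in IL-17C+ mice and at the site labelled uninvolved in IL-17C+KO mice. Within IL-17C+KO mice only Krt6a passed by limma, and Krt17 passed in neither genotype.

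Age was compared over all 6 groups. At 14 against 10 weeks the differences were 0.22 ± 0.26 for Krt6a (adjusted p = 0.777), -0.11 ± 0.38 for Krt6b (adjusted p = 0.93), 0.23 ± 0.42 for Krt16 (adjusted p = 0.855) and 0.21 ± 0.20 for Krt17 (adjusted p = 0.724). None of the members passed by limma and none had an unadjusted p under 0.05, and 0% of all genes passed, with 1856 genes at an unadjusted p under 0.05. Within single groups, where 1 array stands on each side and no test can be made, Krt6b differed by -2.40 in WT, 1.23 in IL-6KO and 1.29 in IL-17C+KO involved skin. Krt16 differed by -1.87, 1.64 and 2.41 in the same 3 groups. In IL-17C+ involved and IL-17C+KO uninvolved skin, the groups with the highest levels, neither gene moved by more than 0.13 between the ages.

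The members did not all vary together. Over the 12 arrays the Pearson correlation was 0.99 between Krt6b and Krt16 (Spearman 0.98), 0.91 between Krt6a and Krt16 (0.84) and 0.90 between Krt6a and Krt6b (0.78). Those with Krt17 were 0.71 for Krt6a, 0.57 for Krt6b and 0.56 for Krt16. These values are descriptions, since the arrays fall into a high and a low set and share tissue and processing. After the group means were taken away, the correlation was still 0.93 for Krt6b with Krt16, 0.75 for Krt6a with Krt16 and 0.60 for Krt6a with Krt6b, but -0.71 for Krt6b with Krt17, -0.53 for Krt16 with Krt17 and -0.06 for Krt6a with Krt17. With 2 arrays per group, these last values rest on 1 difference between the ages per group. The largest for Krt6b was that of WT skin, at -2.40 with Krt17 at 1.01. Read as signs, the same age differences agreed for Krt6b and Krt16 in 5 of the 6 groups, and for Krt6b and Krt17 in 1 of 6.

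Krt6a and Krt6b encode proteins of near-identical sequence, and how far the probes of one take up RNA of the other cannot be read from these values. A row that names Krt6b together with the predicted gene Gm5478 stayed at 2.77 to 4.02 on all arrays, and a row that names Krt6a together with Krt5 stayed at 10.62 to 11.36. Neither shared the range of the members' own rows. Krt5, the basal type II keratin next to Krt6a on the chromosome, had no row of its own and was not analysed here.

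Among the keratins, large increases were limited in number. Of the 49 other keratin genes measured, 2 were higher and 3 were lower in IL-17C+ involved than in WT skin, with a median difference of 0.45 against a median near 0 over all genes (from -0.02 to 0.03 across comparisons). Krt6b, Krt16 and Krt6a held places 1, 2 and 3 of the 53 keratin differences. Krt14, the type I keratin of the basal layer, rose by 1.52 ± 0.30 (adjusted p = 0.0247), from 9.49 and 10.03 in WT to 11.31 and 11.26 in IL-17C+ involved skin. Krt33a, a hair keratin, rose by 1.70 ± 0.37 (adjusted p = 0.0395). Krt1, a keratin of the layers above the basal one, was not called here. It stood at 9.95 and 9.95 in WT and at 11.91 and 11.98 in IL-17C+ involved skin. Krt77 fell by 4.22 ± 0.54 (adjusted p = 0.00188), Krt15, a keratin of basal cells and the follicle bulge, fell by 3.13 ± 0.43 (adjusted p = 0.003) and Krt24 fell by 1.61 ± 0.24 (adjusted p = 0.00469).

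Krt77, Krt15 and Krt24 were also the other keratins that passed in uninvolved IL-17C+KO against IL-17C+ skin, all lower (-2.82 ± 0.54, -2.69 ± 0.43 and -2.48 ± 0.24, adjusted p = 0.031, 0.00999 and 0.000245). In the interaction of site with Il6 they alone among the 49 passed, with differences of 6.75 ± 0.76, 3.96 ± 0.61 and 2.38 ± 0.34, while Krt6b, Krt16 and Krt6a held the lowest 3 of the 53 places. In the interaction of the transgene with Il6, 14 of the 49 were lower and 3 higher, with a median of -1.17, so other keratins had the members' sign there. In involved against uninvolved IL-17C+ skin, Krt1, the type II keratin of the layers above the basal one, rose by 2.03 ± 0.47 (adjusted p = 0.0499), and the same 3 keratins fell. These comparisons share arrays.

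**Figure D3:**
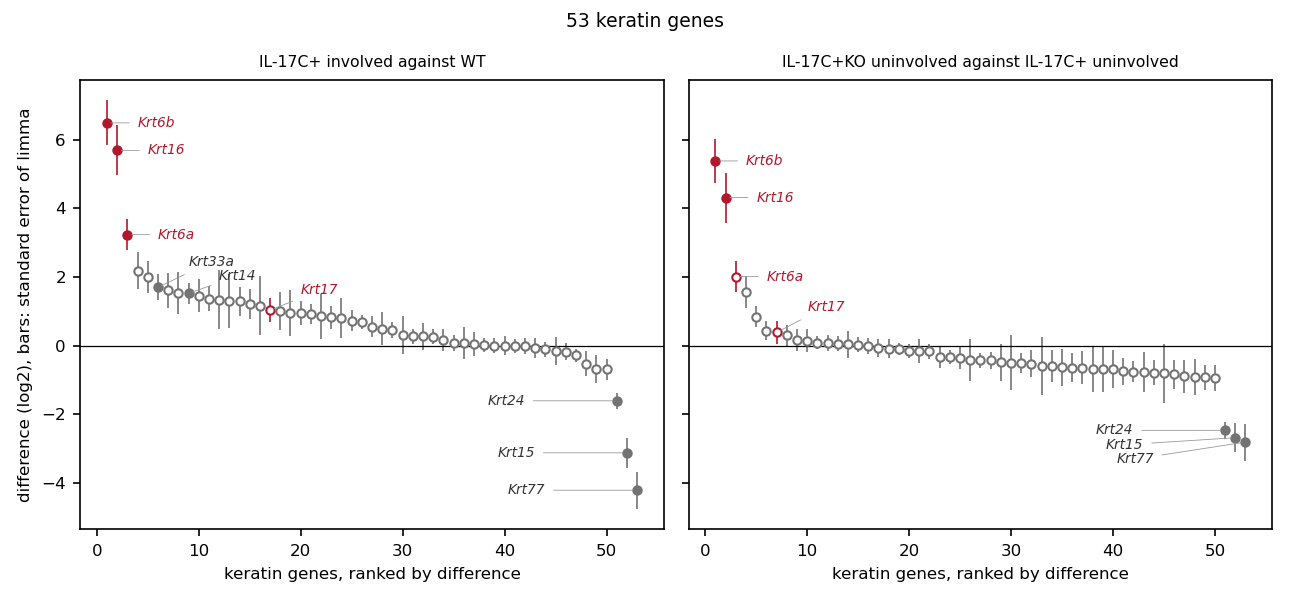
Differences of all 53 keratin genes (vertical axis, log2, bars show the standard error of limma), ranked from highest to lowest (horizontal axis), in IL-17C+ involved against WT skin and in IL-17C+KO against IL-17C+ uninvolved skin, with the stress keratins in red and filled points where the adjusted p was under 0.05. Krt6b, Krt16 and Krt6a headed both rankings, Krt17 stood among keratins that did not pass, and Krt24, Krt15 and Krt77 were the lowest in both.

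The genes next to the members on the chromosome were set beside them. In IL-17C+ involved against WT skin, the difference was -0.01 for Gm5414, -0.53 ± 0.37 for Krt75, a keratin of the companion layer of the hair follicle (adjusted p = 0.661), and 1.34 for Krt71, a keratin of the inner root sheath (adjusted p = 0.614). In the type I cluster it was 0.00 for Krt9 and 0.26 for Krt42 (adjusted p = 0.737), with Krt14 as given above. Both Krt14 and Krt71 thus had larger differences than Krt17. In the interaction of the transgene with Il6, Krt71 was at -5.62 ± 1.20 (adjusted p = 0.0414), about the size of Krt16, and it was at -4.28 ± 0.85 in IL-17C+KO involved against IL-6KO skin (adjusted p = 0.0953).

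Signals that act on keratinocytes formed a list of 22 measured ligands. In IL-17C+ involved against WT skin, 8 were higher and 1 was lower, with a median difference of 1.12. Il1b, which encodes interleukin-1 beta, rose by 5.88 ± 0.46 (adjusted p = 7.87e-05). Il1f6 and Il1f8, older symbols of the genes for IL-36 alpha and IL-36 beta, rose by 3.96 ± 0.61 (adjusted p = 0.00623) and 3.82 ± 0.73 (adjusted p = 0.0204). Epgn, an EGF receptor ligand, differed by 2.70 ± 0.65 and did not pass (adjusted p = 0.0588). In the uninvolved skin of IL-17C+KO against IL-17C+ mice 7 of the 22 were higher, led by Il1b at 5.04 ± 0.46 (adjusted p = 0.000216). In the interaction of site with Il6, 10 of the 22 were lower and 1 was higher, with Il1b at -10.10 ± 0.65.

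Of 18 transcription factors with known links to stress keratin genes, 1 was higher in IL-17C+ involved than in WT skin (median difference 0.03). This was Cebpb, the factor C/EBP beta, which rose by 1.11 ± 0.24 (adjusted p = 0.0335). The largest difference that did not pass was that of Egr1, an immediate early factor, at -1.44 ± 0.48 (adjusted p = 0.203). Against uninvolved IL-17C+ skin, Fosb, an AP-1 subunit, fell by 1.73 ± 0.38 (adjusted p = 0.0396) and none of the 18 was higher. In uninvolved IL-17C+KO against IL-17C+ skin none of the 18 passed by limma, with 8 at an unadjusted p under 0.05.

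Partners of keratin filaments, that is desmosome and plakin genes, did not pass by limma in any of the 12 main comparisons (0 of 10, with 0 to 2 at an unadjusted p under 0.05). In IL-17C+ involved against WT skin their median difference was -0.06 and none had an unadjusted p under 0.05. The largest differences there were 0.33 ± 0.27 for Jup, which encodes plakoglobin (adjusted p = 0.72), and -0.33 ± 0.27 for Plec, which encodes plectin (adjusted p = 0.712). The simple epithelial keratins, the set around Krt8 and Krt18, likewise gave 0 of 6 in that comparison, none at an unadjusted p under 0.05, with a median of 0.05.

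Other genes of the activated epidermis were counted as 22 alarmins and inducible cornified envelope genes. In IL-17C+ involved against WT skin 19 of the 22 were higher, with a median difference of 3.23, and 15 were higher against uninvolved IL-17C+ skin. Stfa3 and Stfa1, protease inhibitors of the stefin A family, rose by 8.24 ± 1.08 and 6.17 ± 0.71 against WT (adjusted p = 0.00219 and 0.000996). S100a8, a subunit of calprotectin, rose by 6.39 ± 0.72 (adjusted p = 0.000892), and Sprr1a, an envelope precursor, differed by 1.41 ± 0.48 (adjusted p = 0.213). In the IL-17C+KO involved against IL-17C+ involved comparison only Slpi, a protease inhibitor, passed (-2.24 ± 0.36), although the median was -1.60. In the interaction of site with Il6, 17 of the 22 were lower, with a median of -5.08.

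The proliferation list moved less. In IL-17C+ involved against WT skin 3 of 25 genes were higher, with a median difference of 0.81 and 17 of the 25 at an unadjusted p under 0.05. Birc5, which encodes survivin, rose by 1.48 ± 0.26 (adjusted p = 0.0121), Cenpe, a kinetochore motor, by 1.20 ± 0.28 (adjusted p = 0.0492) and Plk1, a mitotic kinase, by 1.14 ± 0.24 (adjusted p = 0.0311). Top2a differed by 1.36 ± 0.38 (adjusted p = 0.11).

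Markers of other cells moved with the same groups. The 13 neutrophil genes, of which S100a8 and S100a9 are also in the alarmin list and are made by keratinocytes too, had a mean level of 6.00 to 6.38 in involved skin of IL-17C+ mice and 6.15 to 6.62 in skin labelled IL-17C+KO uninvolved. Elsewhere it was 3.61 to 4.71, with 6 to 10 of the 13 below the array median. Of these genes 7 were higher in IL-17C+ involved than in WT skin and 7 were higher in IL-17C+KO than in IL-17C+ uninvolved skin. The 22 skeletal muscle genes ran the other way, with a mean level of 7.48 to 7.76 in IL-17C+ involved, 8.23 to 8.77 in IL-17C+KO uninvolved and 8.34 to 8.94 in IL-6KO skin, against 9.59 to 10.38 in WT, 9.85 to 10.29 in uninvolved IL-17C+ and 8.72 to 10.11 in IL-17C+KO involved skin. All 22 stood above the array median on every array, and 19 of them were lower in IL-17C+ involved than in WT skin, with a median of -2.37. Their part in the keratin differences was not tested beyond the fits with the muscle mean as a covariate, in which muscle level and group cannot be told apart.

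The 29 hair shaft genes, which mark the growing follicle where stress keratins are also made, moved with the members in some comparisons and not in others. Their mean level was 5.11 to 5.38 in WT, 7.21 to 7.38 in IL-6KO, 6.51 to 7.73 in uninvolved IL-17C+ and 4.33 to 5.59 in IL-17C+KO involved skin. In the groups with the highest stress keratins it was 6.09 to 6.76 (IL-17C+ involved) and 6.57 to 6.58 (IL-17C+KO uninvolved). Of these genes 3 were higher in IL-17C+ involved than in WT skin (median 1.21, 16 of 29 at an unadjusted p under 0.05) and 11 in IL-6KO than in WT skin (median 2.03). In IL-17C+KO involved skin 5 were lower than in IL-17C+KO uninvolved skin (median -1.61) and 4 were lower than in IL-17C+ involved skin (median -1.34), and 17 were negative in the interaction of the transgene with Il6 (median -3.24). None of the 29 passed by limma in IL-17C+ involved against uninvolved skin or in IL-17C+KO against IL-17C+ uninvolved skin, where Krt6b and Krt16 rose (medians -0.75 and -0.61, with 8 and 2 at an unadjusted p under 0.05). The part of the hair shaft genes in the keratin differences was not tested beyond the fits with their mean as a covariate. Of 10 genes of the inner root sheath and companion layer, 5 were negative in the interaction of the transgene with Il6 (median -4.32). None of the 10 passed by limma in the other main comparisons, although the median was -3.27 in IL-17C+KO involved against IL-6KO skin. The part of this list was not tested. The 17 epidermal genes went both ways, with 1 higher and 3 lower in IL-17C+ involved than in WT skin (median -0.07), 1 higher and 3 lower against uninvolved IL-17C+ skin and 4 positive in the interaction of site with Il6.

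Fibroblast and melanocyte genes also moved in some of these comparisons. The 15 fibroblast genes had a mean level of 8.41 to 8.52 in IL-6KO and 8.74 in IL-17C+KO involved skin, against 9.15 to 9.87 in the other 4 groups. Of these genes 3 were lower in IL-17C+KO involved than in IL-17C+KO uninvolved and than in IL-17C+ involved skin, 4 were lower in IL-6KO than in WT skin and 3 were higher in IL-17C+KO uninvolved than in IL-6KO skin. None of the 15 passed by limma in IL-17C+ involved against WT skin (median 0.00, with 6 at an unadjusted p under 0.05). The 10 melanocyte genes had a mean level of 5.58 to 5.77 in IL-17C+ involved and 4.72 to 5.14 in WT skin, and 3 of them were higher there (median 0.75), led by Dct, an enzyme of pigment synthesis, at 1.75 ± 0.35 (adjusted p = 0.0266). The part of either list in the keratin differences was not tested.

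**Figure D4:**
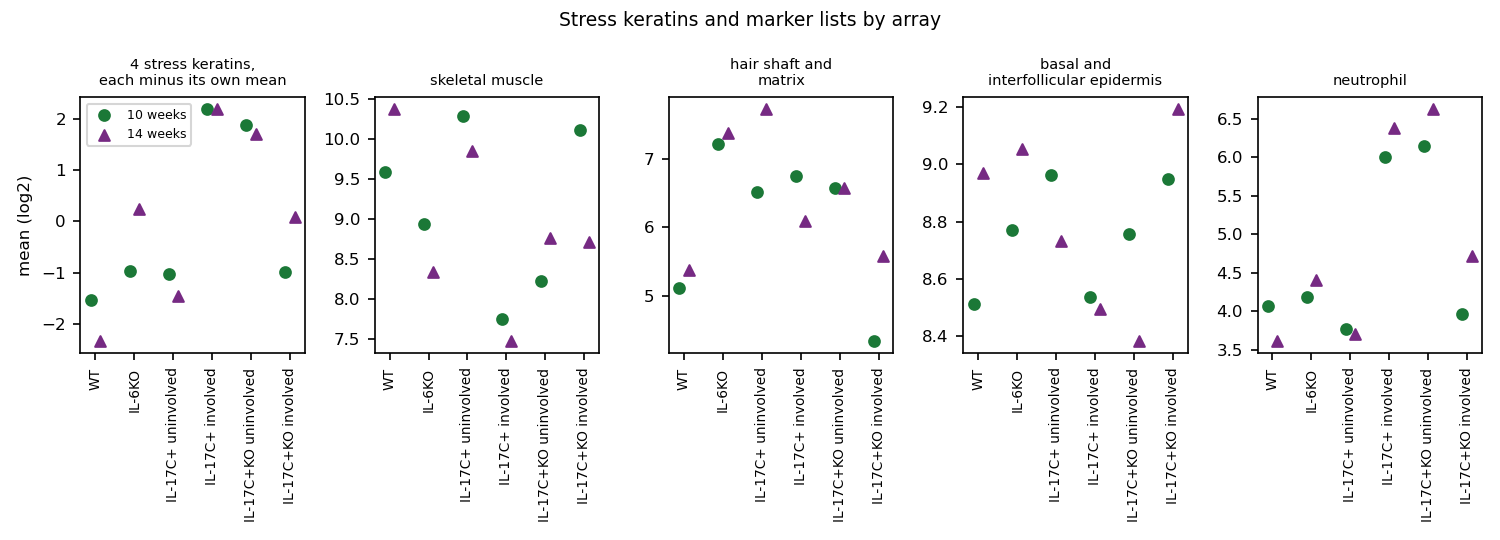
Mean log2 level of the 4 stress keratins, each minus its own mean over the arrays, and of 4 marker lists (vertical axes, with their own range in each panel) in the 6 groups (horizontal axis), with 10-week pools as circles and 14-week pools as triangles. The neutrophil mean was 6.00 or more in IL-17C+ involved and IL-17C+KO uninvolved skin and 4.71 or less elsewhere, while the skeletal muscle mean was lowest in IL-17C+ involved skin at 7.48 to 7.76.

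The genes most like the members were sought over all genes by Pearson correlation with the mean of the 4 members over the 12 arrays, as a description. The 10 nearest were Sprr2b, Sprr1b, Csta3, S100a8 and Cxcr2 (0.98 each), Slc7a11 (0.97), and S100a9, Igsf3, Cstdc6 and Sprr2e (0.96 each). Sprr genes encode small proline-rich envelope proteins, Csta3 and Cstdc6 cystatins of the stefin A type, Cxcr2 a chemokine receptor of neutrophils, and Slc7a11 a cystine and glutamate transporter. Sprr1b was at 4.17 and 3.81 in WT, 8.53 and 8.66 in involved IL-17C+, 8.33 and 8.12 in uninvolved IL-17C+KO and 4.32 and 6.92 in IL-17C+KO involved skin. S100a8 was at 4.54 and 3.67, 10.32 and 10.67, 10.35 and 10.74, and 5.51 and 8.69 in the same groups.

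Taken singly, Krt6b and Krt16 were nearest to each other and then to S100a8 (0.98 and 0.99). The genes nearest to Krt6a were Il1b, Csta3 and the chemokine receptor gene Cxcr4 (0.96 each). The nearest to Krt17 were others, namely Dcakd (0.92), Cebpb and Rps20 (0.89 each). Cebpb was at 6.88 and 7.38 in WT, 8.25 and 8.23 in involved IL-17C+ and 7.88 and 7.94 in uninvolved IL-17C+KO skin, a narrow range like that of Krt17.

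**Figure D5:**
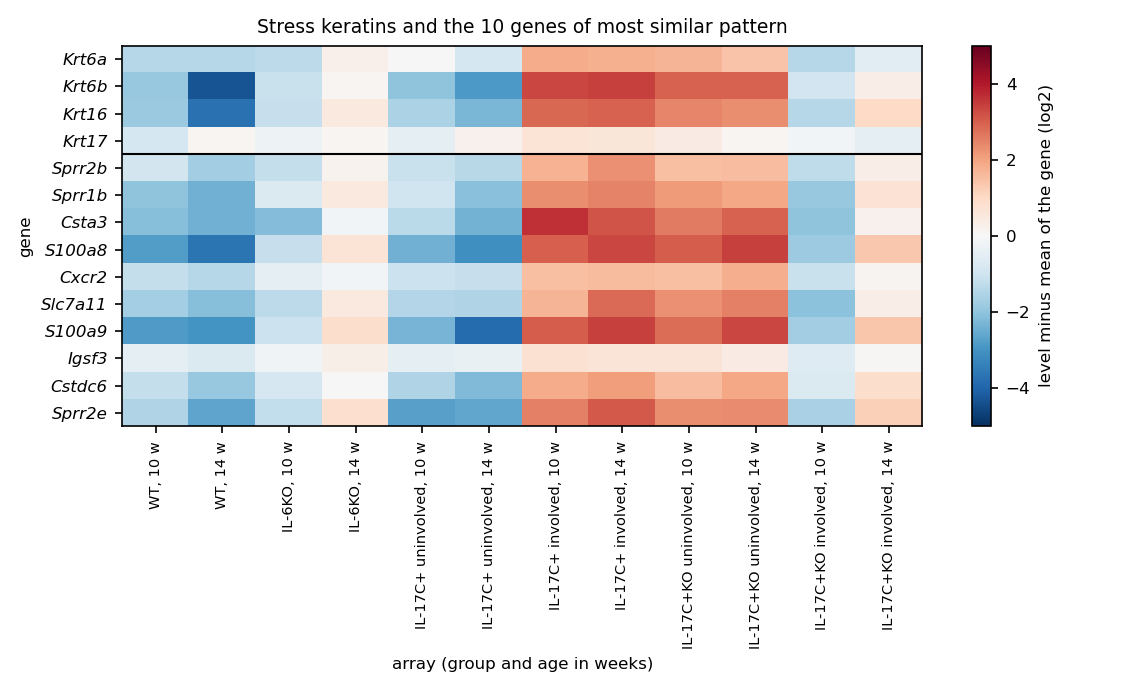
Heat map of the 4 stress keratins and the 10 genes nearest to their mean (rows), each as its log2 level minus its mean over the 12 arrays (colour), by array (columns, group and age in weeks). The 4 arrays of IL-17C+ involved and IL-17C+KO uninvolved skin were above the mean in every row. The 14-week arrays of IL-6KO and IL-17C+KO involved skin were higher than the 10-week arrays of the same groups in all 10 of these genes. The 10 genes were picked for their correlation with the members over these same 12 arrays, so a shared pattern follows in part from that choice.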

How the data were processed

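RNA of pooled dorsal skin was read on 12 Affymetrix arrays. The authors deposited intensities made with RMA in Affymetrix Expression Console, per the submitters' processing notes. The sources used here give no versions, probe filters or genome build. The design had assumed deposited log2 values, but the intensities are linear, from 2.50 to 18385 with array medians of 15.7 to 18.8, and were put on the log2 scale before the fit.

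Of 41345 rows, 23521 name 1 gene, 1814 name several and 16010 name none. Rows naming 1 gene were used, and for 1082 genes with more than 1 row the row of highest mean, which left 22180 genes. Of these, 22139 symbols are in the RefSeq gene table of GRCm38.p6, used for names and neighbours only.

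Group plus age was fitted over the 12 arrays with limma 3.58.1 in R 4.3.3 (lmFit, eBayes with an intensity trend, 5 residual and a median of 7.65 prior degrees of freedom). Two-sided p-values went through Benjamini-Hochberg adjustment across 22180 genes, with calls under 0.05. Depending on the comparison, 875 to 3347 of all genes had an unadjusted p under 0.05. Counts of members or list genes at an unadjusted p are to be read beside these totals. The same code was tested on simulated data, with arrays drawn independently and genes changed in IL-17C+ involved against WT skin. It recovered 40.3% of genes changed by 1 log2 unit, 79.1% of those changed by 2 and 98.5% of those changed by 4. A difference of about 1 log2 unit that did not pass is therefore not shown to be absent. Age is a factor of the labels and serves as the replicate block. After group means were taken away, deviations of same-age arrays correlated from -0.21 to 0.52 between groups. The number of arrays limits the precision.

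The members and the 15 gene lists were chosen with earlier results of these data known. Genes named besides the members are Il17c and Il6, the chromosomal neighbours, the nearest genes by correlation (10 to the mean, 3 to each member), and from each list up to 3 called genes of largest difference and the largest not called. The nearest genes leave out predicted loci (Gm and Rik symbols), small RNAs, receptors of the olfactory and vomeronasal families and segments of antigen receptors. Krt14, Krt1, Krt15, Krt24 and Krt77 come from the list of other keratins. Rows naming several genes or none and list genes without a row were not analysed here.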

Additional observations from a re-analysis of the deposited data

Results flagged for a closer look

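In 6 tests of an interaction, the effect on a stress keratin differed between groups of mice. The transgene effect in involved skin differed with Il6 for Krt6a (-3.69), Krt6b (-6.30) and Krt16 (-5.59), all as log2 differences by limma. The difference between involved and uninvolved transgenic skin differed with Il6 for Krt6a (-4.80), Krt6b (-9.09) and Krt16 (-7.45). Krt17 passed in neither interaction (limma, adjusted p = 0.38 and 0.265). Of all genes, 1.31% passed in the first interaction and 2.58% in the second. With skeletal muscle as a covariate none of the 6 passed. Both sets rest on IL-17C+KO arrays, whose Il6 levels go partly against their label. The first set also rests on IL-6KO arrays, with Il17c above WT. The second also rests on IL-17C+ uninvolved arrays, whose Il17c levels go partly against their label.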

How the results depend on the processing

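Alternative fits were run for the 12 main comparisons only, and not for the remaining pairs of groups. Of 48 differences of single members in the main comparisons, 18 passed. Under 391 alternatives of these, 323 passed with the same direction, 68 kept the direction without passing and none reversed. Many of these alternatives could change only the spread or the adjustment, not the difference. Examples are leaving out an array of a group not compared, the mean of rows (each member has 1) and group differences without the age term. Their direction was fixed in advance, so these counts do not measure how stable the differences are. Differences that did not pass did so under 27 alternatives. These include Krt6a in IL-17C+KO against IL-17C+ uninvolved skin with the epidermal covariate (2.48), after quantile normalization and in a fit of those groups only (2.01), and Krt16 in IL-17C+KO against IL-17C+ involved skin in a fit of those groups only (-3.13). With skeletal muscle as a covariate the number of members called went to 0 for IL-17C+ involved against WT and against uninvolved, for IL-17C+KO involved against both IL-17C+KO uninvolved and IL-17C+ involved, for IL-17C+KO against IL-17C+ uninvolved and for both interactions, and to 2 for IL-17C+KO uninvolved against IL-6KO. With hair shaft genes it went to 1 for IL-17C+ involved against WT, and to 0 for IL-17C+KO uninvolved against IL-6KO, for IL-17C+KO involved against both IL-17C+KO uninvolved and IL-17C+ involved and for the transgene interaction. With epidermal genes it went to 0 for IL-17C+KO against IL-17C+ involved. For IL-17C+KO uninvolved against IL-6KO it was 0 without the trend, after quantile normalization and with the mean of rows, and 3 in a fit of those groups only. For IL-17C+KO involved against uninvolved it was 2 with a filter on dim genes (2 or more arrays over their median), in a fit of those groups only and with the replicate block of genotype and age. With no replicate block no number of members called changed, and the block of genotype and age changed no other.

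Leaving out 1 array gave 2 to 3 members for IL-17C+ involved against WT, 1 to 3 against uninvolved, 0 to 0 for IL-17C+ uninvolved against WT, 0 to 1 for IL-6KO against WT, 0 to 0 for IL-17C+KO involved and 0 to 2 for IL-17C+KO uninvolved against IL-6KO, 0 to 3 for IL-17C+KO involved against uninvolved and against IL-17C+ involved, 1 to 3 for IL-17C+KO against IL-17C+ uninvolved, 1 to 3 and 3 to 3 for the transgene and site interactions, and 0 to 0 for age. Where it leaves 1 array in a group, that array is assumed to vary like the others.

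Reversals occurred 23 times, all among differences that did not pass. With the hair shaft covariate Krt16 was at -0.052 for IL-17C+ uninvolved against WT and Krt17 at 0.067 for IL-17C+KO involved against IL-6KO, and with the muscle covariate Krt16 was at -0.15 for age. The others came from leaving out 1 array. Values then ran, for IL-17C+ uninvolved against WT, from -0.70 to 2.05 (Krt6b), -0.41 to 2.12 (Krt16) and -0.21 to 0.74 (Krt17). For IL-6KO against WT they ran from -0.17 to 0.78 (Krt17), and for IL-17C+KO involved against IL-6KO from -1.25 to 0.34 (Krt6a), -0.64 to 1.04 (Krt6b), -1.20 to 1.42 (Krt16) and -0.52 to 0.13 (Krt17). For age they ran from -0.048 to 0.43 (Krt6a), -0.39 to 0.35 (Krt6b) and -0.20 to 0.65 (Krt16). The cause of these changes was not tested. In an alternative chosen after seeing the data, without the IL-6KO and IL-17C+KO arrays, 3, 3 and 0 members passed in the comparisons of the other 3 groups, as before. In another, quantile normalization moved the medians of gene lists by at most 0.23 and changed the sign of 13 of 192. WT skin at 14 weeks held Krt6b below the array median, so folds against WT rest on a level near background.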
